A study of Arabidopsis thaliana with 5 samples.

Results

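The light reactions of photosynthesis run on protein complexes of the thylakoid membrane, and 51 nuclear genes that encode their parts are described here in Arabidopsis thaliana roots, out of 33557 features measured. They were listed by gene identifier: 9 genes of the main light-harvesting antenna LHCII, 5 of the minor antenna, 6 of the photosystem I antenna LHCI, 12 of photosystem I, 10 of photosystem II, 3 of the cytochrome b6f complex and plastocyanin, 2 of the plastid ATP synthase, and 4 of leaf-type ferredoxin and ferredoxin-NADP reductase (FNR). RNA-seq was made from root total RNA of the wild type Col-0 in 3 libraries and of plants labelled GFP-GrxS5 in 2 libraries. The label joins green fluorescent protein to GrxS5, a plant-specific glutaredoxin, and the study asked which genes GrxS5 represses. The promoter and copy number of the transgene, the number of independent lines, plant age and growth conditions were not given in any source used here. Nor do the labels say whether replicates were separate plants, and p-values then cover the spread among these libraries alone.

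Light-harvesting proteins (LHC) bind chlorophyll and pass excitation energy to the photosystems. Photosystem II draws electrons from water, the cytochrome b6f complex and plastocyanin carry them to photosystem I, and ferredoxin with FNR hands them to NADP, while the ATP synthase uses the proton gradient that builds up on the way. The chloroplast genome encodes the reaction-centre cores, and the nucleus encodes the antenna and many small subunits. These nuclear genes are highly expressed in green leaves and are turned on by light and by GOLDEN2-LIKE (GLK) transcription factors, and in roots, whose plastids are mostly not green, they are expressed at low levels that rise when roots turn green.

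Values are FPKM, fragments scaled to gene length and library size, as deposited by the authors. The low values put the depth at about 3250000 to 4350000 fragments per library, where 1 fragment on a 1.5 kb gene is worth 0.153 to 0.205 FPKM. GrxS5 itself stood at 3.06, 4.14 and 3.23 FPKM in Col-0 replicates 1 to 3 and at 103 and 124 FPKM in GFP-GrxS5 replicates 1 and 2, so the targeted gene matched the labels. GrxS5 has close copies beside it on chromosome 4, with which fragments may be shared. All 8 root markers on the list were above 0 in every library and 0 passed limma, 2 of them (PLT1 and CASP1) having an unadjusted p under 0.05. PLT1 went from 9.39, 10.5 and 8.37 FPKM in Col-0 to 5.88 and 5.81 in GFP-GrxS5 (limma adjusted p = 0.0564). It was called lower after quantile normalization (limma adjusted p = 0.0433). CASP1 went the other way, from 122, 131 and 143 to 166 and 152 FPKM (limma adjusted p = 0.112). Of 16 shoot markers outside photosynthesis, 7 were at 0 in all 5 libraries, among them the leaf polarity genes FIL, YAB3 and YAB5 and the stomatal genes MUTE and FAMA. The summed FPKM of the shoot markers was 92.6 to 102 in wild-type roots and 64.2 to 65.8 in GFP-GrxS5, most of it from the epidermal gene PDF1, which fell from 70.9 ± 4.73 to 42.3 ± 0.998 FPKM (± SD, 3 and 2 libraries; limma adjusted p = 0.00421). Of the 5 tested, the other 4 did not pass. AS1 went from 19.1, 19.8 and 17.5 to 15.9 and 15.2 FPKM (limma adjusted p = 0.192). ATML1 went from 2.45, 2.94 and 2.95 to 1.96 and 1.44 FPKM (limma adjusted p = 0.220). AS2 went the other way, from 1.25, 0.873 and 1.59 to 2.31 and 1.66 FPKM (limma adjusted p = 0.370). Per library, 10, 9 and 9 of the 16 were at 0 in the wild type, then 8 and 9. The labels' protocol speaks of RNA from roots and shoots although all 5 libraries are labelled root, and it names 2 library kits and 2 sequencers without assigning them, so whether kit and genotype coincide is not known and their effects cannot be told apart.

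Sequences show why some family members are hard to tell apart in these values. The LHCB1 genes LHCB1.1, LHCB1.2 and LHCB1.3 lie side by side on chromosome 1 and encode the most abundant antenna protein of leaves. Their coding sequences are 804 bases each, 95.7% to 96.4% identical in pairs, and differ at 47 positions among the 3. The 90-base window printed here was picked for holding the most of these positions, the first if tied. The first 90 coding bases from the RefSeq TAIR10.1 reference, 5′ to 3′, hold 9 of those positions, shown in capitals:
LHCB1.1: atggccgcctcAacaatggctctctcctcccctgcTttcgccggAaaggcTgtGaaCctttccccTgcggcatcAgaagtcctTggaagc
LHCB1.2: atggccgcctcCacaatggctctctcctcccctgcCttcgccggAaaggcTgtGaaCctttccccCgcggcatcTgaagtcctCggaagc
LHCB1.3: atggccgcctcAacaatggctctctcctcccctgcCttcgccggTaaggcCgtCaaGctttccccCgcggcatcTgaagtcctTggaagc
LHCB1.1 and LHCB1.3 share a run of 119 identical coding bases, and how fragments that match several copies were divided was not given in any source used here. Values of single LHCB1 copies, and of the close copies LHCB2.1 and LHCB2.2, are therefore uncertain.

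Promoters are shown for the 3 members with the smallest p-values, as 250 bases before the annotated gene start on the gene's strand, 5′ to 3′, from TAIR10.1. Capitals mark matches on either strand to the I-box GATAAG, the G-box CACGTG or CCAATC, a motif reported in promoters of GLK targets.
PSAE2, chr2:8736484-8736733, plus strand: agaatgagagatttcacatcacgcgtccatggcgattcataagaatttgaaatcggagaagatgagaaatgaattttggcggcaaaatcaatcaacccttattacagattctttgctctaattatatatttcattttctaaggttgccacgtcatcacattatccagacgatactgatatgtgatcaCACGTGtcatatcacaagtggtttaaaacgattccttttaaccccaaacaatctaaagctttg
PSBR, chr1:29735702-29735951, plus strand: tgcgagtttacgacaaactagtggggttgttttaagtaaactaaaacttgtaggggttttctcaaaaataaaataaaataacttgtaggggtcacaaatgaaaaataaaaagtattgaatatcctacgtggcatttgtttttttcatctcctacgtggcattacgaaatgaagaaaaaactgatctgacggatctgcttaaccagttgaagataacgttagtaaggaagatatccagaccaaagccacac
LHCB1.3, chr1:10477635-10477884, plus strand: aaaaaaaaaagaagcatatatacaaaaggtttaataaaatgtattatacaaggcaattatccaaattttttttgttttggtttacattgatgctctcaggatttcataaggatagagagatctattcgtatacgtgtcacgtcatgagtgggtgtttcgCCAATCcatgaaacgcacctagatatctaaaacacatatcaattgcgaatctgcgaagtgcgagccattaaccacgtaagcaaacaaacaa
The PSAE2 window holds 1 G-box, which starts 63 bases before the gene start, the LHCB1.3 window holds 1 CCAATC that starts 91 bases before it, and the PSBR window holds none of the 3 words.

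Across all 51 members, 27.5% of such windows held CCAATC, 23.5% GATAAG and 17.6% CACGTG, against 10.2%, 12.3% and 6.49% of the windows of 27443 nuclear protein-coding genes. CCAATC was found in 10 of the 20 antenna genes and in 4 of the other 31 members, a split by role that was made after the matches were seen. Any of the 3 words was present in 16 of the 36 members that rose and in 6 of the 12 tested members that did not pass. A match is a description of these windows, and binding was not measured.

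As a whole, light-reaction transcripts were higher in GFP-GrxS5 roots. The FPKM of the 51 members summed to 1752, 1796 and 2003 in Col-0 replicates 1 to 3 and to 3291 and 3412 in GFP-GrxS5 replicates 1 and 2, a ratio of the means of 1.81. The groups did not overlap, and the members' part of all FPKM was 0.186% to 0.214% in wild-type roots and 0.352% to 0.356% in GFP-GrxS5. In bulk RNA, more cells that express these genes and more RNA per cell cannot be told apart. Within Col-0 the members were not level either: 32 of the 51 were highest in replicate 3, 14 in replicate 2 and 5 in replicate 1.

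Of the 51 members 48 passed the filter on low values, and 36 of these rose, 0 fell (0 also at an unadjusted p under 0.05) and 12 did not pass (limma, with Benjamini-Hochberg adjusted p under 0.05 over 19693 genes; every limma adjusted p given here is of this kind). Over all tested genes 4.73% rose and 2.35% fell, so that 66.9% of all calls were higher, or 54.9% after quantile normalization. The share that rose grew with mean FPKM over the 5 libraries, from 1.26% under 5 FPKM to 11.3% over 100. At 20 to 50 FPKM it was 5.6%, where 14 of 21 members rose. At 50 to 100 FPKM it was 9.66%, where 11 of 13 members rose. The median log2 fold change of the tested members was 0.84, on the log2(FPKM + 1) scale, against 0.01 over all tested genes. Both GFP-GrxS5 libraries lay above all Col-0 libraries in 46 of the 48, as in 22.6% of all tested genes, and 0 lay below them, against 20.3% of all tested genes. The log2 fold change was positive in the same 46 members, against 52.1% of all tested genes. Mean FPKM was at least 2-fold higher in 17 of the 48, as in 2.76% of all tested genes. The exceptions to the shift were PSBS and FD1, whose groups overlapped. Across the 48 tested members the log2 fold change and the log2 Col-0 level had a Pearson correlation of -0.11, given as a description since the genes share their libraries.

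**Figure D1:**
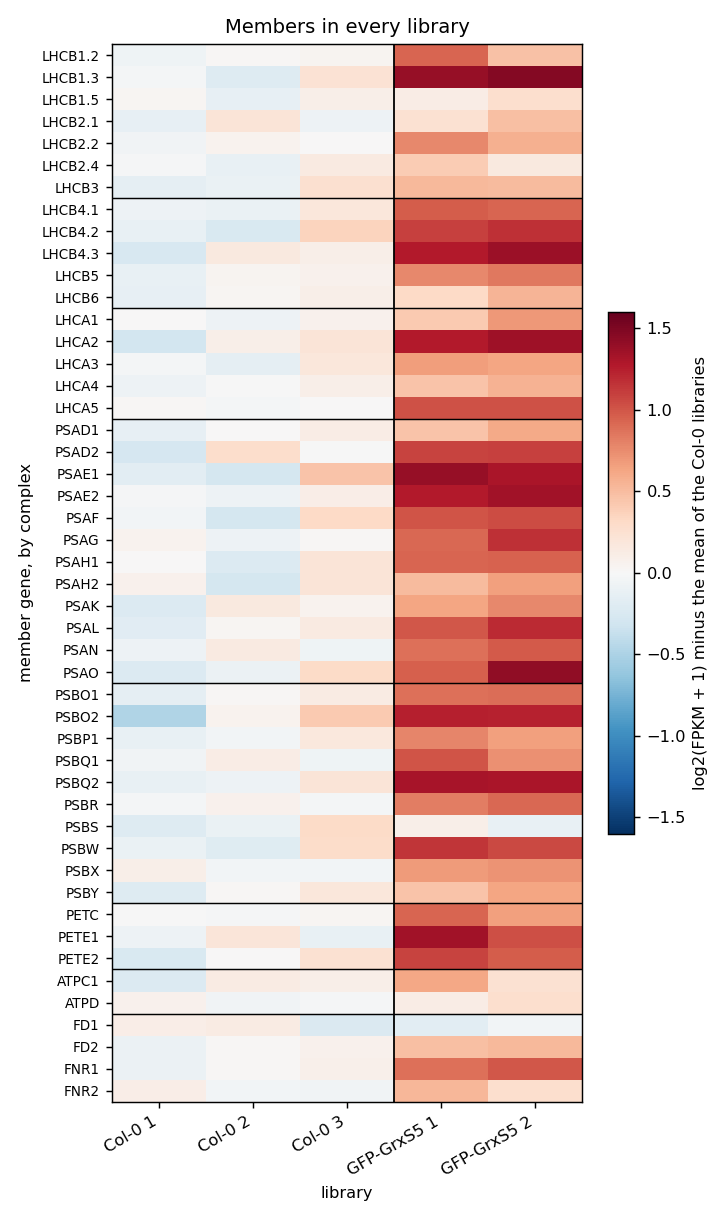
Each row is a member with a mean above 1 FPKM in Col-0 and each column a library; colour gives log2(FPKM + 1) minus the mean of the 3 Col-0 libraries. Both GFP-GrxS5 columns are red in 46 of the 48 rows, while PSBS and FD1 have pale columns on both sides of 0, and Col-0 replicate 3 is slightly redder than replicate 1 in most rows.

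The number of calls rested on having both GFP-GrxS5 libraries, and fell without either of them, among the members and also over all tested genes. In those fits the lone GFP-GrxS5 library is assumed to vary like the Col-0 libraries. Leaving out Col-0 replicates 1, 2 and 3 in turn left 31, 30 and 33 members higher, and 2.66%, 2.97% and 2.88% of all tested genes. Across these 5 fits 15 members stayed called in each: LHCB1.3, LHCB4.1, LHCB5, LHCA2, LHCA5, PSAE2, PSAG, PSAL, PSAN, PSBO1, PSBQ2, PSBR, PSBX, PETC and FNR1. Another limit is shared loci: the files list LHCB1.5, LHCB3, LHCB4.2, LHCB6, LHCA4, LHCA5, PSAE2, PSAH1, PSBR and FNR1 under a locus that holds a second gene, and without these 10, 29 of 38 tested members rose.

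LHCII, the antenna that serves mainly photosystem II, is built from LHCB1, LHCB2 and LHCB3 proteins, and its genes moved unevenly. Of 9 members 7 were tested, 3 rose and 4 did not pass, with a median log2 fold change of 0.52. LHCB1.3 (AT1G29930, chromosome 1, 10478005 to 10479048) had the highest FPKM of all members in both genotypes. It stood at 192, 170.5 and 231 FPKM in Col-0 replicates 1 to 3 and at 516 and 546 FPKM in GFP-GrxS5 replicates 1 and 2. The lowest GFP-GrxS5 library was thus 2.23 times the highest Col-0 library. LHCB1.3 rose by 1.43 on the log2 scale (SE 0.12; limma adjusted p = 0.0014) and supplied 9.49% to 11.6% of the members' summed FPKM in wild-type roots and 15.7% to 16.0% in GFP-GrxS5.

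Another copy, LHCB1.5 (AT2G34420, chromosome 2), stood at 83.1, 73.6 and 86.8 FPKM in the wild type and at 87.6 and 97.5 FPKM in GFP-GrxS5. Its log2 fold change of 0.19 did not pass (SE 0.10; limma adjusted p = 0.273) and ran from 0.11 without GFP-GrxS5 replicate 2 to 0.27 without replicate 1. The gene went from rank 5 to rank 11 by FPKM among the members. LHCB1.2 rose from 9.62, 10.3 and 10.4 to 20.2 and 14.4 FPKM and LHCB2.2 from 4.45, 4.90 and 4.71 to 8.65 and 7.46. Both were near the threshold (limma adjusted p = 0.0426 and 0.0456). The LHCB1.2 call was lost without any 1 Col-0 library, or replicate 1 of GFP-GrxS5, and the LHCB2.2 call without any 1 of the 5, and both with replicate number as a block (limma adjusted p = 0.110 for LHCB1.2 and 0.157 for LHCB2.2 in the block fit; 0.0957 to 0.187 where lost without a library; range with every alternative 0.0337 to 0.187).

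LHCB3, an antenna protein that links the LHCII trimers to the photosystem, had 28.6, 29.4 and 38.2 FPKM in the wild type and 46.2 and 45.7 in GFP-GrxS5 and missed the threshold (limma adjusted p = 0.0622). It passed without Col-0 replicate 3, which held its highest Col-0 value, and with replicate number as a block (limma adjusted p = 0.022 and 0.0399), and over all alternatives its adjusted p ran from 0.022 to 0.203 (limma). Both fits gave LHCB3 the same log2 fold change of 0.65, since the block gives Col-0 replicate 3 a term of its own. LHCB2.1 and LHCB2.4 had 11.9 ± 1.65 and 15.6 ± 1.91 FPKM, and 2.5 ± 0.336 and 3.25 ± 0.521 FPKM, in Col-0 and GFP-GrxS5 (± SD, 3 and 2 libraries), and neither passed (limma adjusted p = 0.186 and 0.46). LHCB1.1 was below the filter at 0.414, 0.721 and 0.219 FPKM in the wild type and 1.06 and 0.825 in GFP-GrxS5. LHCB1.4 was listed at 0, 0.581 and 0.529 FPKM in Col-0 and at 0 in both GFP-GrxS5 libraries. Such values rest on few fragments.

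The minor antenna proteins LHCB4, LHCB5 and LHCB6 (CP29, CP26 and CP24) sit between LHCII and the photosystem II core. Of the 5 members 4 rose and LHCB6 did not pass, with a median log2 fold change of 0.96. LHCB4.1 went from 53.4, 52.8 and 64.6 FPKM in Col-0 to 112 and 109 FPKM in GFP-GrxS5, a log2 fold change of 0.96 (SE 0.10; limma adjusted p = 0.0032). LHCB5 went from 52.8, 59.1 and 60.0 to 98.5 and 103 FPKM, a log2 fold change of 0.81 (SE 0.08; limma adjusted p = 0.00298). In both genes the GFP-GrxS5 libraries stood clear of all Col-0 libraries by a factor of at least 1.64. LHCB4.3, another LHCB4 gene, was low at 3.95, 5.6 and 5.32 FPKM in Col-0 and had 13.3 and 14.3 FPKM in GFP-GrxS5, the largest ratio of means, 2.78-fold, among the 48 tested members.

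LHCB4.2 rose from 16.2, 14.7 and 22.9 to 38.8 and 40.6 FPKM. The LHCB4.2 and LHCB4.3 calls (limma adjusted p = 0.012 and 0.00644) were lost without either GFP-GrxS5 library (limma adjusted p 0.0578 to 0.0942 where lost; range with every alternative 0.0051 to 0.0942). LHCB6 had 35.5 ± 2.94 FPKM in the wild type and 48.3 ± 5.39 in GFP-GrxS5 (± SD, 3 and 2 libraries; limma adjusted p = 0.0602).

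LHCI, the antenna of photosystem I, is built mainly from LHCA1 to LHCA4, while LHCA5 and LHCA6 are minor forms known to join photosystem I to the NDH complex. All 5 tested LHCI genes rose, with a median log2 fold change of 0.65. LHCA2 went from 37.9, 49.9 and 54.2 FPKM in Col-0 to 114 and 122 FPKM in GFP-GrxS5, a log2 fold change of 1.32 (SE 0.14; limma adjusted p = 0.00349). Its rank by level among the members went from 13 to 5. LHCA4 went from 45.1, 47.8 and 51.3 to 66.3 and 71.2 FPKM, a log2 fold change of 0.51 (SE 0.09; limma adjusted p = 0.0169). So LHCA2 and LHCA4, level with each other in Col-0, stood apart in GFP-GrxS5, a difference between the genes that was not tested.

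LHCA5 had 7.67, 7.42 and 7.64 FPKM in Col-0 and 16.3 FPKM in both GFP-GrxS5 libraries (limma adjusted p = 0.00421). LHCA1 and LHCA3 rose from 25.3 ± 1.35 to 37.8 ± 5.4 and from 40.5 ± 4.7 to 63.8 ± 1.15 FPKM (± SD, 3 and 2 libraries; limma adjusted p = 0.03 and 0.0142). The LHCA1 call was lost with replicate number as a block (limma adjusted p = 0.0859) and without any 1 of the 5 libraries, that of LHCA3 without either GFP-GrxS5 library, and that of LHCA4 without any 1 library except Col-0 replicate 3 (limma adjusted p 0.0522 to 0.142 where lost; range with every alternative 0.0118 to 0.142). LHCA6 was below the filter, at 0, 0.278 and 0.254 FPKM in the wild type and 1.72 and 0.318 in GFP-GrxS5.

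**Figure D2:**
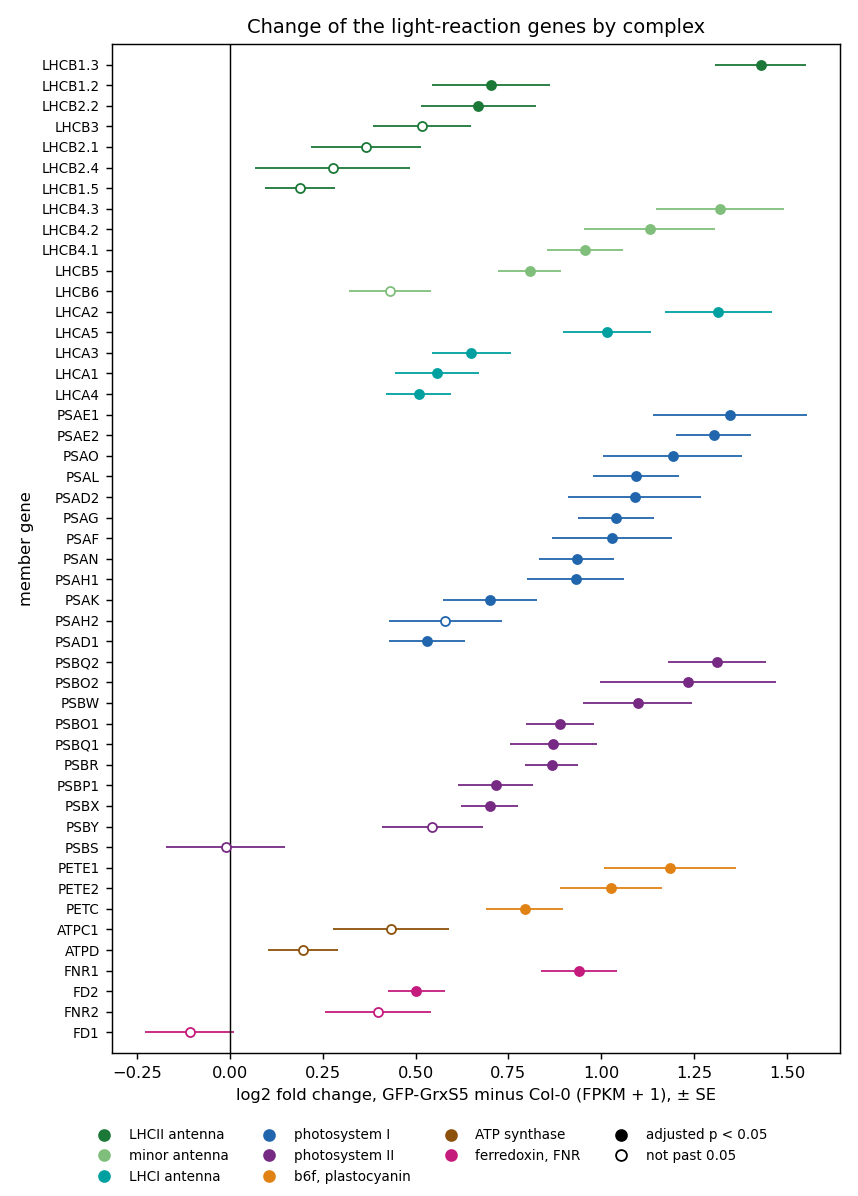
Points give the log2 fold change, GFP-GrxS5 minus Col-0 on the log2(FPKM + 1) scale, of the 48 tested members, grouped by complex, with bars of 1 SE; filled points passed an adjusted p of 0.05. Photosystem I genes run from 0.53 to 1.35, while LHCB1.3 lies at 1.43, LHCB1.5 at 0.19, both ATP synthase genes under 0.5 and FD1 at -0.11.

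Nearly all photosystem I genes rose: 11 of 12 rose, 0 fell (0 also at an unadjusted p under 0.05) and PSAH2 did not pass, with a median log2 fold change of 1.03. PSAF, the subunit that helps dock plastocyanin, went from 46.1, 38.8 and 59.5 FPKM in Col-0 to 96.4 and 99.0 FPKM in GFP-GrxS5 (limma adjusted p = 0.0121). PSAO, a small subunit near the LHCII docking side, went from 28.6, 31.3 and 41.7 to 66.1 and 91.4 FPKM (limma adjusted p = 0.0121). Its GFP-GrxS5 libraries differed from each other more than those of PSAF, and both stayed above all Col-0 libraries. PSAG, PSAL and PSAN had log2 fold changes of 1.04, 1.09 and 0.93 (SE 0.10, 0.12 and 0.10; limma adjusted p = 0.00245, 0.00314 and 0.0034). PSAG helps anchor LHCI, PSAL takes part in docking LHCII, and PSAN is a lumenal subunit near the plastocyanin site. PSAK, another subunit at the edge of the complex, rose from 30.5 ± 4.11 to 49.9 ± 3.37 FPKM (± SD, 3 and 2 libraries; limma adjusted p = 0.0198).

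On the stromal side PSAD and PSAE form the ferredoxin docking site, and each is encoded by a pair of genes. PSAE1 went from 15.9, 14.6 and 24.9 to 48.8 and 45.9 FPKM and PSAE2 from 16.5, 15.6 and 17.9 to 41.4 and 43.6 FPKM. PSAE2 (AT2G20260), whose promoter is printed above, had the smallest p of all members (ratio of mean FPKM 2.55; limma adjusted p = 9.41e-04). PSAE1 had a log2 fold change of 1.35 (SE 0.21; limma adjusted p = 0.0114). PSAD1 went from 38.6, 42.6 and 46.2 to 58.2 and 65.1 FPKM and the weaker PSAD2 from 5.27, 8.15 and 6.49 to 14.99 and 15.1 (limma adjusted p = 0.0256 and 0.0142). PSAH, which is needed for LHCII docking, is encoded by PSAH1, at 27.5, 23.3 and 31.8 and then 52.7 and 53.2 FPKM, and PSAH2, at 21.0, 16.2 and 23.1 and then 28.7 and 31.9 (limma adjusted p = 0.00834 and 0.0669). For both PSAH genes the groups did not overlap.

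Several photosystem I calls were lost when a single library was left out. Those of PSAD2, PSAE1, PSAF and PSAH1 were lost without either GFP-GrxS5 library, that of PSAO without GFP-GrxS5 replicate 2, that of PSAK without either GFP-GrxS5 library or Col-0 replicate 3, and that of PSAD1 without either GFP-GrxS5 library, Col-0 replicate 1 or Col-0 replicate 2 (limma adjusted p 0.0503 to 0.137 where lost; range with every alternative 0.00335 to 0.137). Each of the 7 kept its direction in all 5 fits.

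Photosystem II members were higher in most but not all cases: 8 of 10 rose, PSBY and PSBS did not pass, and the median log2 fold change was 0.87. PSBR, a small subunit near the oxygen-evolving complex, went from 146, 156 and 146 FPKM in Col-0 to 263 and 284 FPKM in GFP-GrxS5, a log2 fold change of 0.87 (SE 0.07; limma adjusted p = 0.00117). Of the oxygen-evolving complex itself, PSBO1 went from 83.1, 93.3 and 100.5 to 170.1 and 172 FPKM (log2 fold change 0.89, SE 0.09; limma adjusted p = 0.00275). PSBO2, the weaker copy, went from 8.53, 12.8 and 16.8 to 30.4 and 30.1 FPKM (limma adjusted p = 0.0252). PSBO proteins stabilize the manganese cluster that splits water, and PSBP and PSBQ assist them by holding calcium and chloride. PSBP1 rose from 62.8 ± 6.62 to 104 ± 6.24 FPKM (± SD, 3 and 2 libraries; limma adjusted p = 0.00869). PSBQ1 went from 22.2, 25.1 and 21.9 to 47.3 and 39.0 FPKM and PSBQ2 from 10.4, 10.7 and 13.3 to 29.98 and 29.5 (limma adjusted p = 0.00712 and 0.00252).

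Among the small membrane subunits PSBW and PSBX rose from 28.5 ± 5.45 to 61.5 ± 2.81 and from 77.8 ± 4.56 to 127 ± 2.93 FPKM (± SD, 3 and 2 libraries; limma adjusted p = 0.00708 and 0.00345). PSBY had 18.9 ± 2.63 and 27.9 ± 2.45 FPKM (± SD, 3 and 2 libraries; limma adjusted p = 0.0576), and passed with a filter of 5 FPKM, which left fewer genes to adjust over (limma adjusted p = 0.0464). PSBS, the sensor that switches on heat dissipation in strong light, had 30.6, 32.8 and 44.0 FPKM in the wild type and 37.9 and 32.5 in GFP-GrxS5. Its log2 fold change was -0.01 (SE 0.16; limma adjusted p = 0.976), and the sign changed between alternatives. The call of PSBO2 was lost without either GFP-GrxS5 library or Col-0 replicate 2, those of PSBP1 and PSBW without either GFP-GrxS5 library, and that of PSBQ1 without GFP-GrxS5 replicate 1 (limma adjusted p 0.0517 to 0.133 where lost; range with every alternative 0.00418 to 0.133).

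**Figure D3:**
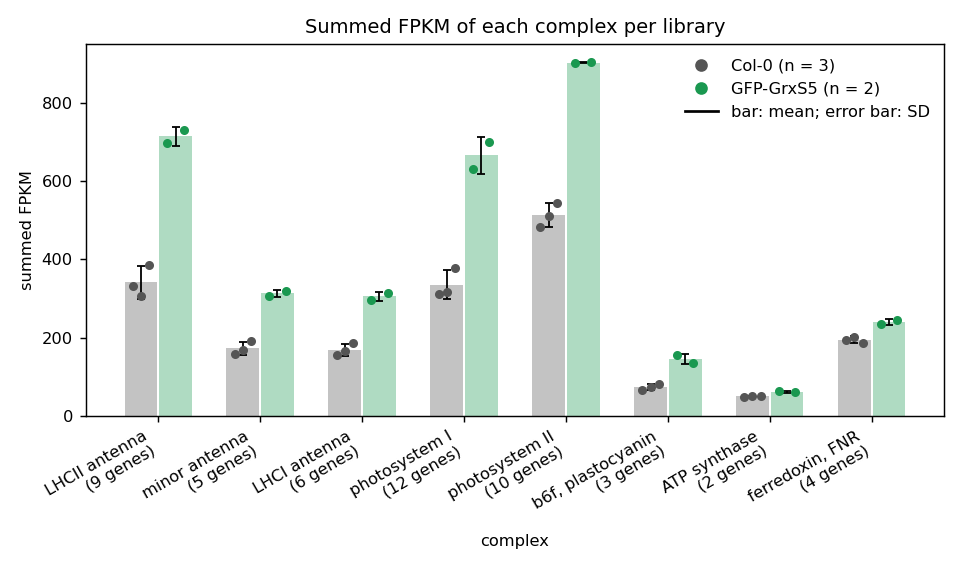
Bars give the mean summed FPKM of each complex with SD, grey for Col-0 and green for GFP-GrxS5, and points the single libraries. LHCII sums to 341 FPKM in the wild type and 714 in GFP-GrxS5 and photosystem II to 513 and 903, while the ATP synthase genes sum to 50.4 and 62.4.

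Between the photosystems all 3 members rose. PETC, the Rieske iron-sulfur protein of the cytochrome b6f complex, went from 27.4, 27.2 and 28.2 FPKM in Col-0 to 53.5 and 44.1 FPKM in GFP-GrxS5, a log2 fold change of 0.79 (SE 0.10; limma adjusted p = 0.00667). The major plastocyanin gene PETE2 went from 34.7, 41.2 and 48.9 to 88.6 and 81.4 FPKM and the minor gene PETE1 from 4.18, 5.25 and 4.05 to 12.8 and 10.2 (limma adjusted p = 0.00738 and 0.0104). Plastocyanin is the copper protein of the lumen that carries electrons to photosystem I. The PETE2 call was lost without either library of GFP-GrxS5 and the PETE1 call without its replicate 1 or with replicate number as a block (limma adjusted p = 0.0595 in the block fit; 0.0565 to 0.0887 where lost; range with every alternative 0.00588 to 0.0887).

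Neither ATP synthase gene passed, and 1 of the 2, ATPC1, had an unadjusted limma p under 0.05. ATPC1, the gamma subunit that carries the redox switch of the enzyme, had 16.8, 21.7 and 21.0 FPKM in the wild type and 30.9 and 23.5 in GFP-GrxS5 (limma adjusted p = 0.146). ATPD, the delta subunit, had 32.2, 29.4 and 30.1 FPKM in the wild type and 33.3 and 37.1 in GFP-GrxS5 (limma adjusted p = 0.255). Their log2 fold changes were 0.43 (SE 0.16) and 0.20 (SE 0.09). ATPC1 stood at 0.24 without GFP-GrxS5 replicate 1 and 0.62 without replicate 2, and ATPD at 0.27 and 0.12. Both groups stood just apart, with the lower GFP-GrxS5 library 1.09 and 1.03 times the highest Col-0 library.

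At the acceptor end of photosystem I, 2 of 4 members rose. FD2, the main leaf ferredoxin, went from 75.8, 81.7 and 84.8 FPKM in Col-0 to 113 and 116 FPKM in GFP-GrxS5 (log2 fold change 0.50, SE 0.08; limma adjusted p = 0.0112). That call did not survive leaving out either GFP-GrxS5 library (limma adjusted p 0.0673 to 0.0777 where lost; range with every alternative 0.0098 to 0.0777). FD1, the other leaf-type ferredoxin, had 94.7, 96.4 and 75.0 FPKM in the wild type and 78.3 and 85.3 in GFP-GrxS5 (log2 fold change -0.11, SE 0.12; limma adjusted p = 0.628). FNR1 went from 15.6, 16.8 and 17.6 to 31.7 and 34.2 FPKM, a log2 fold change of 0.94 (SE 0.10; limma adjusted p = 0.0034). FNR2 had 9.31, 8.26 and 8.23 and then 12.8 and 10.6 FPKM and did not pass (limma adjusted p = 0.143).

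Where 2 member genes encode the same subunit, the log2 ratio of their (FPKM + 1) describes the balance between the copies. The FD1 to FD2 ratio was 0.32, 0.24 and -0.18 in Col-0, against -0.53 and -0.44 in GFP-GrxS5. FD1 was thus the stronger copy in Col-0 replicates 1 and 2, and FD2 in Col-0 replicate 3 and both GFP-GrxS5 libraries. The difference of the means of -0.61 had an exact permutation p of 0.2, two-sided, which is the smallest that 3 against 2 libraries allow (p = 0.3 with Benjamini-Hochberg over the 9 pairs). The groups also did not overlap for PSAD1 to PSAD2, PSBO1 to PSBO2 and PSBQ1 to PSBQ2, whose mean ratios differed by -0.56, -0.34 and -0.44, toward the weaker copy. For PSAH1 to PSAH2 and FNR1 to FNR2 the mean ratios differed by 0.35 and 0.54, toward the stronger copy, again without overlap. The PSBO1 to PSBO2 difference was -0.18 without Col-0 replicate 1, and that of FNR1 to FNR2 was 0.36 without GFP-GrxS5 replicate 2. Each of these 5 pairs reached the same exact permutation p of 0.2. The ratios of LHCB4.1 to LHCB4.2, PSAE1 to PSAE2 and PETE1 to PETE2 overlapped between the groups (exact permutation p = 0.4, 1.0 and 0.8).

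**Figure D4:**
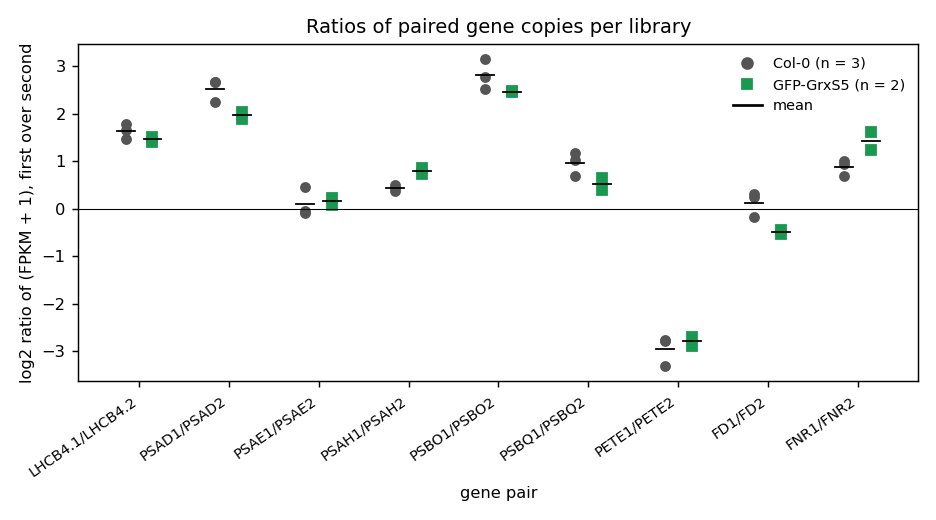
For each pair of gene copies the log2 ratio of (FPKM + 1), first over second gene, is plotted per library, grey circles for Col-0 and green squares for GFP-GrxS5, with short lines at the means. FD1 to FD2 goes from around 0 in Col-0 to -0.48 in GFP-GrxS5, and PSAE1 to PSAE2 stays near 0.1.

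Related genes on lists outside the members gave a mixed picture. Of 6 nonphotosynthetic or minor counterparts 5 were tested, 3 fell and 1 rose. FD3, the root-type ferredoxin, fell from 592, 582 and 613 to 457 and 485 FPKM. The root-type reductase gene RFNR2 fell from 518 ± 83.8 to 285 ± 24.7 and RFNR1 from 101 ± 12.8 to 70.8 ± 3.6 FPKM (± SD, 3 and 2 libraries; limma adjusted p = 0.0259 for FD3, 0.0111 for RFNR2 and 0.0368 for RFNR1). The root types stayed the stronger ones in FPKM: leaf-type ferredoxins made up 20.7% to 23.4% of the sum of FD1, FD2 and FD3 in wild-type roots and 29.4% to 29.5% in GFP-GrxS5. Leaf-type FNR made up 3.42% to 4.27% of all 4 FNR genes in wild-type roots and 10.6% to 11.8% in GFP-GrxS5. PSBP2, a second PSBP gene, rose from 1.16, 2.01 and 0.915 to 5.92 and 8.04 FPKM (limma adjusted p = 0.0103). Without a variance trend the calls of FD3, RFNR1 and RFNR2 were lost, and without a filter that of RFNR1. The FD3 and RFNR1 calls were lost without any 1 of the 5 libraries or with replicate number as a block, and those of RFNR2 and PSBP2 without either GFP-GrxS5 library (limma adjusted p 0.0589 to 0.172 where lost without a library; range with every alternative 0.00858 to 0.225).

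Among 6 LHC-like proteins, relatives of the antenna of which several protect against light stress, 1 fell, 0 rose and 5 did not pass, with a median log2 fold change of 0.01. ELIP1, an early light-induced protein, went from 123, 121 and 92.3 FPKM in Col-0 to 43.1 and 62.8 FPKM in GFP-GrxS5, a log2 fold change of -1.08 (SE 0.18; limma adjusted p = 0.0153). It was not called in the fit without a variance trend. The call was lost without replicate 1 of Col-0 or of GFP-GrxS5 (limma adjusted p 0.0522 to 0.091 where lost; range with every alternative 0.0108 to 0.091). Its relative ELIP2 had 26.1, 21.3 and 19.4 and then 10.3 and 15.96 FPKM (limma adjusted p = 0.0688), and was called lower after the GC and length correction (limma adjusted p = 0.044). The one-helix protein genes OHP1 and OHP2 had 8.93 ± 1.89 and 30.4 ± 5.94 FPKM in Col-0, then 14.2 ± 2.53 and 38.2 ± 5.6 (± SD, 3 and 2 libraries), and did not pass (limma adjusted p = 0.108 and 0.268). ELIP1 thus went against the antenna members, all of which had positive log2 fold changes where tested.

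**Figure D5:**
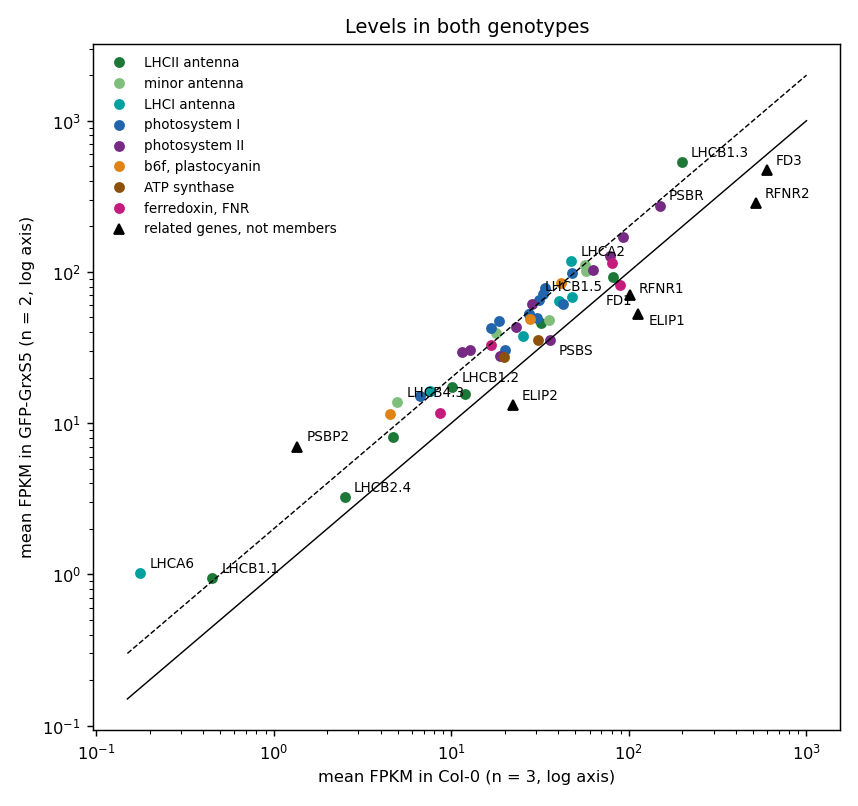
Each point is a gene, its mean FPKM in Col-0 on the x axis and in GFP-GrxS5 on the y axis, both log axes, coloured by complex, with black triangles for related genes that are not members. The solid line marks equal levels and the dashed line a 2-fold rise; most members lie between the lines or on the dashed one, FD1 and PSBS lie on the solid line, ELIP1, FD3 and RFNR2 lie below it, and LHCB1.4, listed at 0 in GFP-GrxS5, is not drawn.

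Of 18 genes for assembly, the NDH complex and the control of electron flow, 14 were tested, 2 rose, 0 fell and 12 did not pass, with a median log2 fold change of 0.39. PGRL1A, of cyclic electron flow, rose from 17.9 ± 0.928 to 26.2 ± 2.05 FPKM and PSB27, a photosystem II assembly factor, from 11.4 ± 2.59 to 21.2 ± 1.86 (± SD, 3 and 2 libraries; limma adjusted p = 0.0289 and 0.0312). Both calls were lost without a variance trend, and that of PSB27 also without a filter. The PGRL1A call was lost without any 1 of the 5 libraries or with replicate number as a block, and the PSB27 call without any 1 except Col-0 replicate 3 (limma adjusted p 0.0646 to 0.163 where lost without a library; range with every alternative 0.0167 to 0.163). The NDH subunit gene NDF2 had 1.89 ± 0.326 and 4.11 ± 1.0 FPKM and CURT1B, which shapes grana edges, 25.2 ± 2.35 and 33.4 ± 3.98 (± SD, 3 and 2 libraries; limma adjusted p = 0.0785 and 0.0948).

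The chloroplast-encoded partners could not be compared. The 12 listed plastid genes, among them psaA, psaB, psbA and atpB, summed to 1.82 to 3.75 FPKM per library, and 1 of them passed the filter without passing the test. None of the 12 exceeded 1.08 FPKM in any library, and whether libraries were selected for polyadenylated RNA, or plastid reads were set aside, was not given in any source used here.

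Of 12 regulators of these genes 9 were tested and 0 passed, with a median log2 fold change of -0.01; by limma at an unadjusted p under 0.05, 2 of them passed. These were HYH, a light-signalling bZIP gene, at 56.8 ± 7.59 and 39.5 ± 4.31 FPKM, and SIG6, a plastid sigma factor gene, at 7.1 ± 0.997 and 10.1 ± 0.452 FPKM (± SD, 3 and 2 libraries; limma adjusted p = 0.061 and 0.13). HYH was called lower after quantile normalization, without Col-0 replicate 3, with replicate number as a block and after the GC and length correction, with a lowest adjusted p of 0.0355 (limma). The block fit has the same log2 fold change as the fit without Col-0 replicate 3, so it is not a separate check. GLK1 was below the filter at 0.329 to 0.727 FPKM over the 5 libraries. GLK2 had 10.7, 7.6 and 11.7 FPKM in the wild type and 11.2 and 13.1 in GFP-GrxS5, and HY5, a bZIP regulator of light responses, had 66.1 ± 2.93 and 63.7 ± 5.17 FPKM (± SD, 3 and 2 libraries; limma adjusted p = 0.425 and 0.733). GLK1, GLK2 and HY5 were picked by role after their values were seen. A p that misses the threshold does not show equal levels.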

How the data were processed

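RNA-seq of root total RNA was analysed from 3 Col-0 and 2 GFP-GrxS5 libraries, grouped by the genotype and title labels. The deposited unit is FPKM, which the authors computed for each gene before deposit. The genome build was TAIR10 per the submitters' processing notes, and the aligner, the quantification tool and its handling of multiply matching fragments are not stated in the material used here. Members were found by gene identifier. The members, related lists, tests and alternatives were chosen with earlier results of these data known, so no list is independent evidence.

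Genes with at least 1 FPKM in at least 2 libraries (19693 of 33557) were fitted on log2(FPKM + 1) with limma 3.58.1 in R 4.3.3, with a variance trend on expression, no covariates and Benjamini-Hochberg adjustment over all of them. This scale understates changes of genes with low values. The script was tested on simulated data. Ratios of gene copies were compared by exact permutation of libraries. All members could be named, and of each related or marker list up to 4 genes with the smallest p. Genes named outside that rule, chosen after their values were seen, were GLK1, GLK2 and HY5 for their role, FIL, YAB3, YAB5, MUTE and FAMA as shoot markers at 0, and psaA, psaB, psbA and atpB as examples of plastid genes. Libraries correlated at 0.975 to 0.979 within genotypes and 0.960 to 0.965 between them. Depth was estimated from the smallest steps in low FPKM values of genes of 1500 to 4000 bases, and it limits precision at low values. Promoters and coding sequences came from RefSeq TAIR10.1. In the files PETE2 is named DRT112, the FNR genes LFNR, and the LHCB1.1 row carries the symbol LHCB1.2. Alternatives were other pseudocounts, filters, scalings, no variance trend, a replicate block, each library left out, and a correction for GC content and length that was added after seeing the data.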

Additional observations from a re-analysis of the deposited data

How the results depend on the processing

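Across 16 alternatives the 36 members that rose kept their direction, and 15 kept their call in all 16. Without a variance trend 23 members rose, with 398 of all genes higher and 184 lower (932 and 462 as reported). Of the antenna, 2 LHCII, 3 minor antenna and 2 LHCI genes then rose. So did 6 photosystem I, 6 photosystem II, 3 cytochrome b6f and plastocyanin, and 1 ferredoxin or FNR gene. The 13 calls lost in that fit were those of LHCB1.2, LHCB4.2, LHCA1, LHCA3, LHCA4, PSAD1, PSAE1, PSAF, PSAK, PSAO, PSBO2, PSBP1 and FD2. Outside the members, the calls of ELIP1, FD3, RFNR1, RFNR2, PGRL1A and PSB27 were lost there too. Leaving out single libraries gave 16 to 33 members higher, 225 to 585 genes higher and 141 to 235 lower. Per complex this gave 1 to 2 LHCII, 2 to 4 minor antenna, 2 to 4 LHCI, 4 to 10 photosystem I, 4 to 8 photosystem II, 1 to 3 cytochrome b6f and plastocyanin, and 1 to 2 ferredoxin and FNR genes; fewer libraries were fitted, and a lone GFP-GrxS5 library is assumed to vary like the others. LHCII had 1 call in place of 3 with no filter, median-of-ratios scaling, quantile normalization, either rescaling of nuclear genes, or the GC and length correction, and the cause was not tested. LHCB1.5 turned to -0.084 under the GC and length correction. PSBS, at -0.01, ran from -0.12 to 0.14 when single libraries were left out, being positive without Col-0 replicate 3 (0.14) and without GFP-GrxS5 replicate 2 (0.10).

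With replicate number as a block 418 genes rose, 176 fell and 33 members rose (LHCB1.2, LHCB2.2, LHCA1 and PETE1 lost, LHCB3 gained), and PSBS stood at 0.14. Replicate 3 exists in Col-0 alone, so the block gives that library a term of its own. Log2 fold changes of the block fit are therefore those of the fit without Col-0 replicate 3, and the 2 fits are not separate checks. Of other genes, HYH, PLT1 and ELIP2 were called lower under some alternatives, as given beside their values. The numbers are not known to pair the libraries: same-numbered libraries' deviations from their group means correlated at -0.0395 and -0.00804 over 19693 genes. The deviations of the 2 GFP-GrxS5 libraries mirror each other, so these correlations tell little about pairing. Depth limits members under 1 FPKM most, where a value rests on a few fragments.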
